A study of Homo sapiens with 24 samples.

Results

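PANC-1 spheroids from a capillary container rotated about a pair of axes (DRCC, dual-axis rotating capillary container) at 1 rpm were compared with PANC-1 cells aggregated in AggreWell microwells. PANC-1 is an established epithelial line from a human pancreatic duct carcinoma, and AggreWell plates gather cells into spheroids in small wells without rotation. The comparison used 6 of the 24 libraries of the series, 3 per culture format, chosen by their labels and not by any measured value. The remaining libraries used here are 3 of PANC-1 in DRCC at 30 rpm, 3 of PANC-1 in flat culture (2D), and 6 of HEK293T, a transformed human embryonic kidney line, in DRCC at 1 rpm and in AggreWell. No agent or genetic change is named for any group. Sources used here give neither culture time nor medium nor spheroid size. Whether replicates came from different cultures is not stated in the labels; the p-values thus reflect differences among these libraries alone, and those may be technical.

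Total RNA was the starting material, and the labels do not say whether poly(A) RNA was selected from it. Levels are in FPKM, fragments scaled by transcript length and library total, which allows levels of different genes to be set side by side. Libraries held 34018135 to 36656956 fragments at 1 rpm and 38239396 to 39110085 in AggreWell. Replicates differed by 2.878 to 3.716 times the sampling noise of their counts, so none was a copy of another. Line markers fitted the labels: 12 PANC-1 markers summed to 5745 to 5853 FPKM at 1 rpm and 5839 to 6016 FPKM in AggreWell, against 505.7 to 529 FPKM in HEK293T at 1 rpm and 439.6 to 453 FPKM in HEK293T in AggreWell. The 13 HEK293T markers summed to 22.1 to 23.5 FPKM at 1 rpm and 24.1 to 25.3 FPKM in AggreWell in PANC-1. In HEK293T they summed to 121.4 to 124.5 FPKM at 1 rpm and 111.2 to 112.9 FPKM in AggreWell, a weaker contrast than that of the PANC-1 markers. Defining duct markers were weak, with CFTR at 0 in all 6 libraries, KRT7 at 0.821 ± 0.0698 FPKM at 1 rpm and 1.09 ± 0.215 FPKM in AggreWell, and the epithelial cadherin CDH1 at 0.829 ± 0.0298 FPKM at 1 rpm and 0.293 ± 0.0291 FPKM in AggreWell. All 10 pancreatic acinar markers in the table were under 1 FPKM in all 6 libraries, with sums of 0.0434 to 0.117 FPKM at 1 rpm and 0.0512 to 0.134 FPKM in AggreWell, and 5 of them were at 0 in all 6. Of 12 duct markers, 4 were tested, and the list summed to 85.5 to 88.3 FPKM at 1 rpm and 59.2 to 61.7 FPKM in AggreWell, mostly from SOX9. SOX9 was the 1 of these 4 that rose; KRT19, MUC1 and ANXA4 fell, and the median of the 4 was -0.51 (log2). Of 10 endocrine markers, 5 were at 0 in all 1 rpm libraries and 3 in all AggreWell libraries, and CHGB alone was tested, at 8.20 ± 0.305 FPKM at 1 rpm and 5.12 ± 0.437 FPKM in AggreWell. The transcripts encoded in the mitochondrial genome took 2.37 ± 0.0717% of each library's fragments at 1 rpm and 4.28 ± 0.0304% in AggreWell (SD, n = 3 each). Because FPKM is relative to a library's total, that difference bears on every other gene. Without these genes, and with each library rescaled to a common FPKM sum, the comparison gave 4788 higher and 4680 lower calls.

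Spheroid culture changes how cells touch each other, reach oxygen and nutrients, and sense load. Several transcript programmes are known to answer such changes. Immediate early genes are switched on within minutes by growth factors, calcium, cyclic AMP or stress and encode short-lived transcription factors and feedback inhibitors. The circadian clock is a feedback loop in which CLOCK and BMAL1 drive the PER, CRY and REV-ERB repressors that act back on them. E2F factors drive the genes of DNA replication, the DREAM and B-MYB complexes act on the genes of mitosis, and SREBP factors drive the genes of cholesterol and fatty acid synthesis when membranes are short of sterol.

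Of 26450 genes in the table, 11304 reached 1 FPKM in at least 3 of the 6 libraries and were tested. The test was limma on log2(FPKM + 1) with Benjamini-Hochberg adjustment over all of them, and a gene was called at an adjusted p under 0.05. Fold changes written as log2 are on that scale, give 1 rpm minus AggreWell with the standard error, and understate the change of genes near 1 FPKM; values after FPKM means are SD (n = 3 libraries per format). Most genes were called, 83.6% of those tested, with 4970 (44.0%) higher and 4483 (39.7%) lower at 1 rpm. These shares are the background for each count of list members called against AggreWell in PANC-1. At least 2-fold changes were rarer, 596 genes (5.27%) higher and 351 (3.11%) lower. The median gene stood at 0.03, and the middle 90% of genes lay between -0.85 and 1.02. The 3 libraries of each format did not overlap for 9584 genes, or 84.8% of those tested, so a lack of overlap on its own sets no gene apart. The filter lets a gene pass through one format only: 232 tested genes were under 1 FPKM in all 1 rpm libraries and 354 in all AggreWell libraries. Such a gene can only be called higher in the format it passed through, so the filter fixes the direction of some list members.

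**Figure D1:**
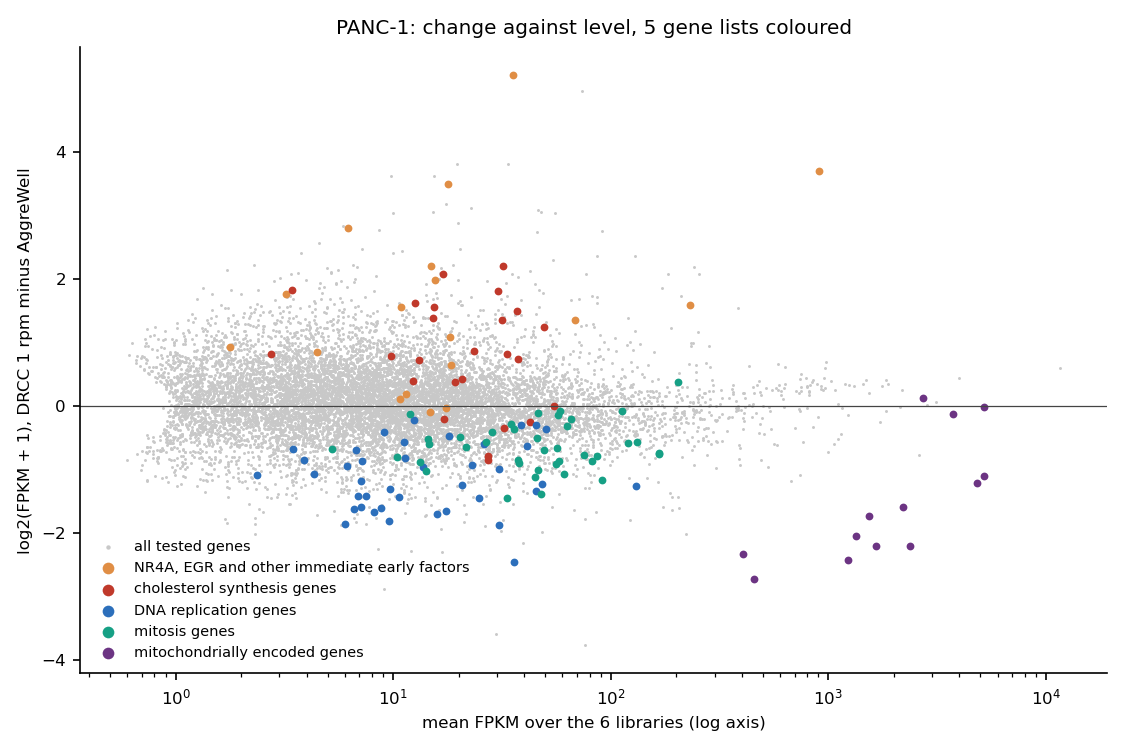
Log2 difference of each tested PANC-1 gene (1 rpm minus AggreWell, y axis) against its mean FPKM over the 6 libraries (log x axis), one point per gene, with 5 gene lists coloured. NR4A2 and ZFP36 stand at the top, DNA replication genes all lie below 0, and mitochondrially encoded genes sit at the right with means of over 100 FPKM, most of them far below 0.

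The 5 largest rises were those of NR4A2, PER1, NR1D1, NGFR and ZFP36. NR4A2, an orphan nuclear receptor induced within minutes by many stimuli, had 69.7, 68.2 and 71.9 FPKM in the 1 rpm libraries, against 1.01, 0.867 and 0.927 FPKM in the AggreWell libraries. All 3 rotated libraries lay far above all 3 microwell libraries, which stood near 1 FPKM, and the log2 change was 5.20 ± 0.039. PER1, a repressor of the circadian clock that is also induced directly by cyclic AMP and glucocorticoids, had 141, 142 and 149 FPKM in the 1 rpm libraries, against 3.596, 3.72 and 3.75 FPKM in the AggreWell libraries. Its level was thus 39.1 times higher at 1 rpm (log2 4.95 ± 0.031), with no overlap. NR1D1, which encodes the REV-ERB alpha repressor, had 62.8, 61.9 and 65.7 FPKM in the 1 rpm libraries, against 4.01, 3.32 and 3.56 FPKM in the AggreWell libraries (log2 3.80 ± 0.051). NGFR, the low-affinity receptor of nerve growth factor, had 37.2, 35.9 and 38.9 FPKM in the 1 rpm libraries, against 1.80, 1.59 and 1.86 FPKM in the AggreWell libraries (log2 3.80 ± 0.048). In both genes every rotated library was above every microwell library. ZFP36, which encodes tristetraprolin, a protein that marks AU-rich mRNAs for decay, was the most abundant of the leading rises, with 1648, 1649 and 1733 FPKM in the 1 rpm libraries, against 129, 131 and 126 FPKM in the AggreWell libraries. Its 1 rpm level was 13.03 times the AggreWell level.

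IRF1, a transcription factor of the interferon response, had 30.3, 29.0 and 28.9 FPKM in the 1 rpm libraries, against 1.74, 1.35 and 1.35 FPKM in the AggreWell libraries. TXNIP, an arrestin-family protein that binds thioredoxin and limits glucose uptake, had 18.96, 19.1 and 18.8 FPKM in the 1 rpm libraries, against 0.586, 0.720 and 0.594 FPKM in the AggreWell libraries. The log2 changes of these genes were 3.62 ± 0.060 and 3.61 ± 0.045, again with no overlap between formats. Further leading rises were MAFF, a small MAF factor (log2 3.49 ± 0.045), DBP, a clock-controlled activator (3.18 ± 0.053), and GABARAPL1, an autophagosome protein (3.10 ± 0.042). PPP1R15A directs a phosphatase to the initiation factor that stress kinases block, and it averaged 84.0 ± 5.02 FPKM at 1 rpm and 9.09 ± 0.704 FPKM in AggreWell. HMOX1, the enzyme that breaks down haem, averaged 85.8 ± 4.85 FPKM at 1 rpm and 9.46 ± 0.518 FPKM in AggreWell. The other leading rises ran down to GADD45B, a growth arrest gene at 160.3 ± 2.20 FPKM at 1 rpm and 23.0 ± 1.63 FPKM in AggreWell, and included TSC22D3 (log2 3.05 ± 0.047), DUSP5 (3.04 ± 0.038), the histone gene H2BC21 (3.03 ± 0.044), HES7 (2.88 ± 0.045), PIK3IP1 (2.82 ± 0.054), NR4A1 (2.80 ± 0.042) and KLHL24 (2.77 ± 0.044). The adjusted p-values of the 20 genes ran from 4.55e-13 to 1.35e-10 by limma, and the rule that ranked them required no overlap.

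The largest fall was that of DKK1, a secreted Wnt antagonist, with 9.77, 10.1 and 8.81 FPKM in the 1 rpm libraries, against 142, 145 and 139.6 FPKM in the AggreWell libraries. AggreWell levels were thus 14.8 times those at 1 rpm (log2 -3.76 ± 0.043). ID2, an inhibitor of basic helix-loop-helix factors, had 4.03, 3.67 and 3.53 FPKM in the 1 rpm libraries, against 56.4, 56.2 and 54.9 FPKM in the AggreWell libraries (log2 -3.58 ± 0.041). For both genes the rotated libraries formed a narrow low group. FAM111B, a protease gene expressed in S phase, fell to 1.41 ± 0.0451 FPKM at 1 rpm, against 16.7 ± 0.617 FPKM in AggreWell. FEN1, the nuclease that trims flaps in lagging-strand synthesis, had 9.38, 10.6 and 11.3 FPKM in the 1 rpm libraries, against 61.7, 58.9 and 62.8 FPKM in the AggreWell libraries (log2 -2.45 ± 0.055). The kinetochore genes SKA3 (log2 -2.25 ± 0.043) and ZWINT (-2.16 ± 0.029) were among the falls too. Outside the cell cycle, falls were measured for NCOA5, a nuclear receptor coactivator (-2.63 ± 0.050), PPP1R10, a nuclear phosphatase subunit (-2.28 ± 0.041), IGFBP3, which binds insulin-like growth factors (-2.30 ± 0.042), the tubulin gene TUBB4B (-2.01 ± 0.026), the neurotensin receptor NTSR1 (-1.98 ± 0.025), the initiation factor EIF5 (-1.97 ± 0.024) and the lipid droplet coat PLIN2 (-1.88 ± 0.028). Another 6 of the 20 are encoded in the mitochondrial genome. The adjusted p-values of these 20 ran from 3.3e-12 to 5.25e-10 by limma.

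**Figure D2:**
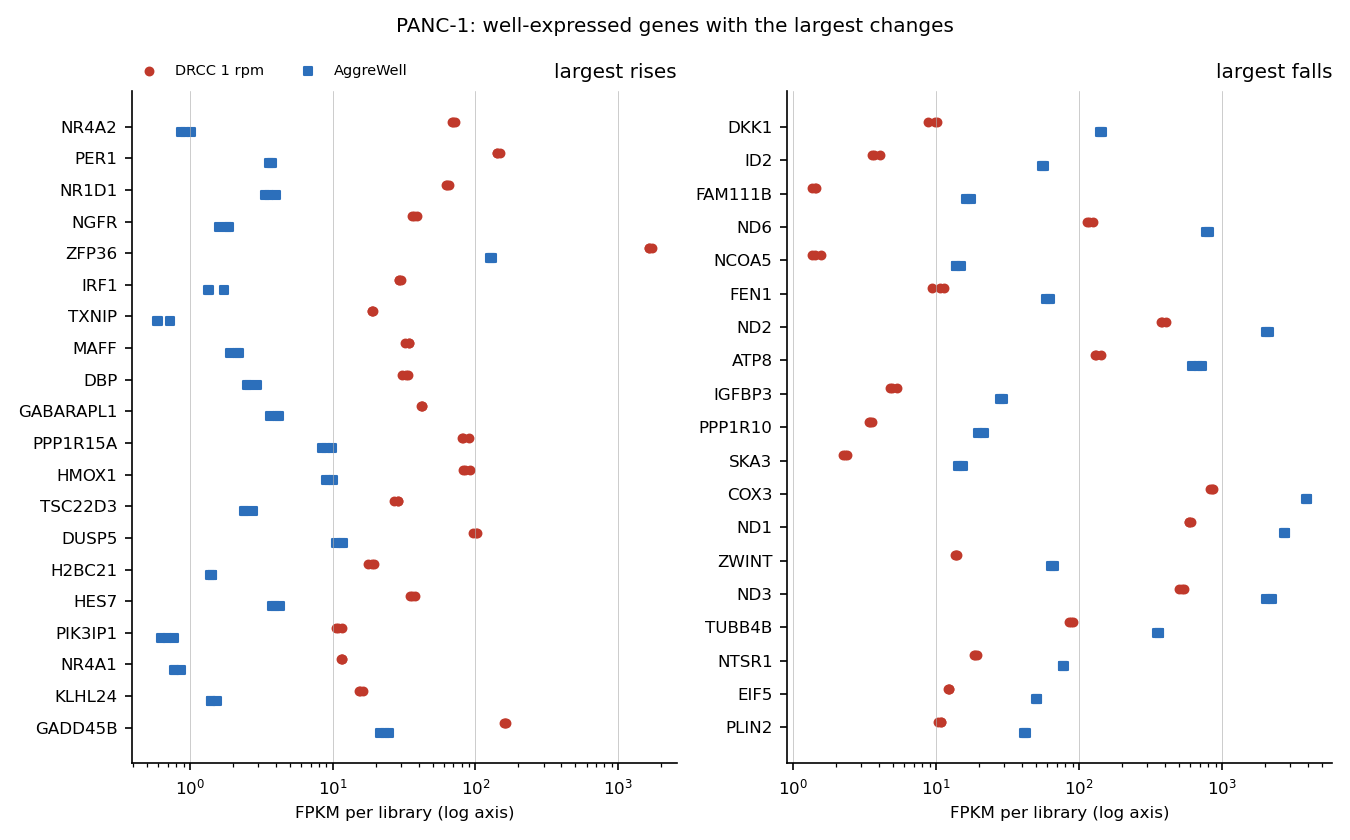
FPKM of each library (log x axis) for the 20 largest rises and 19 of the 20 largest falls among called protein-coding genes with a mean of at least 5 FPKM in the higher format, 1 rpm as circles and AggreWell as squares, 3 libraries each. The symbols of the formats stand apart for every gene, as the ranking rule required, from NR4A2 and PER1 at the top of the rises to DKK1 and ID2 at the top of the falls.

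Among 18 tested NR4A, EGR and other immediate early factors, 16 rose and 0 fell; the median member stood at log2 1.45, against 0.03 over all genes tested. By another scaling or filter, 1 or 2 members fell. Beyond those named above, EGR1, a zinc finger factor induced by ERK signals, averaged 25.3 ± 1.10 FPKM at 1 rpm and 4.73 ± 0.266 FPKM in AggreWell. BTG1, an antiproliferative gene, averaged 25.5 ± 0.309 FPKM at 1 rpm and 5.70 ± 0.200 FPKM in AggreWell, and ATF3, a stress-induced repressor, averaged 5.52 ± 0.257 FPKM at 1 rpm and 0.926 ± 0.0646 FPKM in AggreWell. SRF, the factor that drives many of these genes, did not pass the test (log2 -0.10 ± 0.042, adjusted p = 0.0529 by limma). Of 10 AP-1 subunits, 7 rose and 1 fell, led by JUNB (61.0 ± 1.81 FPKM at 1 rpm and 14.2 ± 0.576 FPKM in AggreWell) and JUND (73.4 ± 5.90 FPKM at 1 rpm and 20.1 ± 1.70 FPKM in AggreWell). FOS itself overlapped between formats, with 4.14, 3.96 and 4.19 FPKM in the 1 rpm libraries, against 4.18, 4.28 and 3.98 FPKM in the AggreWell libraries. NR4A3, EGR2, EGR3, EGR4 and ARC did not reach the filter.

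The MAPK feedback list holds phosphatases and SPRY and SPRED proteins that shut ERK, JNK or p38 signalling off, together with targets of these pathways such as IL11, EPHA2 and CCND1, and 14 of its 21 tested members rose and 4 fell (median log2 0.78). DUSP1, a phosphatase of these kinases, had 222, 216 and 212 FPKM in the 1 rpm libraries, against 40.8, 42.2 and 40.8 FPKM in the AggreWell libraries. Rotated cultures thus held 5.25 times the AggreWell level, and DUSP8 (2.02 ± 0.049) and SPRY4 (1.43 ± 0.024) rose as well. CCND1, cyclin D1, fell to 40.4 ± 0.622 FPKM, against 130.2 ± 1.93 FPKM in AggreWell. Of 12 KLF zinc finger factors, 11 rose and 1, KLF5, fell. The largest rises among them were those of KLF9 (log2 2.09 ± 0.045), KLF11 (1.95 ± 0.037) and KLF6 (1.73 ± 0.022). Among 15 tested glucocorticoid receptor targets, 10 rose and 3 fell, but NR3C1, the receptor, was at log2 -0.23 ± 0.036, and FKBP5, one of its classic targets, did not pass the test (log2 -0.01 ± 0.036; adjusted p = 0.838 by limma). Cyclic AMP and CREB response genes were divided, 9 higher and 6 lower of 15, against 44.0% and 39.7% of all genes tested. SIK1, a kinase that switches CREB coactivators off, stood at 12.8 ± 0.743 FPKM at 1 rpm and 1.504 ± 0.0403 FPKM in AggreWell. CITED2, a CBP-binding regulator, stood at 18.01 ± 0.525 FPKM at 1 rpm and 41.8 ± 0.713 FPKM in AggreWell. SIK1 has a near-identical copy, SIK1B, so its level is uncertain.

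In the circadian clock list, 13 of 17 tested genes rose and 3 fell (median log2 0.41). The risers included repressors of the loop, namely PER1, PER2 (log2 0.41 ± 0.052), PER3 (0.37 ± 0.047), CRY1 (0.39 ± 0.041), CRY2 (1.39 ± 0.072), NR1D1 and NR1D2 (2.46 ± 0.035), and the output activators DBP and TEF (0.87 ± 0.059). NR1D2, which encodes REV-ERB beta, had 34.5, 34.8 and 35.6 FPKM in the 1 rpm libraries, against 5.26, 5.73 and 5.56 FPKM in the AggreWell libraries. BHLHE40, a repressor that competes for the same sites, averaged 134 ± 3.40 FPKM at 1 rpm and 40.1 ± 0.694 FPKM in AggreWell. The activators moved less and apart from each other: CLOCK stood at 2.81 ± 0.295 FPKM at 1 rpm and 3.73 ± 0.116 FPKM in AggreWell, NPAS2 at log2 -0.35 ± 0.032, and BMAL1, listed in the table as ARNTL, at 3.54 ± 0.0205 FPKM at 1 rpm and 2.77 ± 0.134 FPKM in AggreWell. Each library is a single sampling, and no source used here gives the phase of the clock at harvest, so its part in these values was not tested.

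Promoters are shown for 4 of these stress and clock genes because each holds the palindrome that a known regulator reads. Sequences are from RefSeq (GRCh38.p14), 250 bases before to 50 after the annotated start, in lower case with the motif in capitals; positions count from the start site, and both strands were searched. TGACGTCA, the cyclic AMP response element, lies in MAFF at -54 (chr22:38201744-38202043, plus strand), in DUSP1 at -125 (chr5:172771146-172771445, minus strand) and in PPP1R15A at -58 (chr19:48872171-48872470, plus strand). It occurs in 1.98% of 27305 such windows, in 3.49% of those of 9201 tested genes, in 3 of 16 windows of MAPK feedback genes, in 1 of 14 of immediate early genes, in 1 of 22 of ATF4 genes and in 0 of 13 of clock genes. CACGTG, the E-box that CLOCK and BMAL1 bind, lies in PER1 at -173 (chr17:8152355-8152654, minus strand), in 7.43% of all windows, in 10.42% of those of tested genes and in 3 of 13 windows of clock genes. The MAFF and DUSP1 windows hold CACGTG too, left in lower case here, so it is not particular to the clock gene among those shown. A match is a string of letters and shows no binding.
MAFF: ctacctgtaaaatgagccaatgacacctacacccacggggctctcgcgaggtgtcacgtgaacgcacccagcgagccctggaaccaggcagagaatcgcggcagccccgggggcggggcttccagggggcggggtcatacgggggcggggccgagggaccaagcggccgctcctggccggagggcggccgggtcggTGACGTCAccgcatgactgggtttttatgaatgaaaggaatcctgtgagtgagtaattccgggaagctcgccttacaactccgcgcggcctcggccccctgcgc
DUSP1: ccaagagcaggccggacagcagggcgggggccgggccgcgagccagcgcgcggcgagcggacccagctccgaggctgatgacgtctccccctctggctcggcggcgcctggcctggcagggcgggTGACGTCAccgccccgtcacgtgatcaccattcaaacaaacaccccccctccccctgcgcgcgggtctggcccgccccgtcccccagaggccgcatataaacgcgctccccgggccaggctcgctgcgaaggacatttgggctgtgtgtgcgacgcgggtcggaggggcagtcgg
PPP1R15A: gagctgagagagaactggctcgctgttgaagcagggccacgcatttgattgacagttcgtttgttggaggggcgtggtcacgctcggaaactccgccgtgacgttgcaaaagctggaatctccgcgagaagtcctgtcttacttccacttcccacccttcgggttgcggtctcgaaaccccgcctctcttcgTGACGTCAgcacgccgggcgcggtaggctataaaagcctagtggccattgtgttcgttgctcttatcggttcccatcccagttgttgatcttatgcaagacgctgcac
PER1: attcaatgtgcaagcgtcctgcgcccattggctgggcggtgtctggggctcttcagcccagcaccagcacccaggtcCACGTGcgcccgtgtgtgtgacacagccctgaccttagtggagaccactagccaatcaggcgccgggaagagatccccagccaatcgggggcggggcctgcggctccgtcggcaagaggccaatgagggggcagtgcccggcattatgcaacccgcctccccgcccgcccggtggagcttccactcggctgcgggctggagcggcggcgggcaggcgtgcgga

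Genes of DNA replication were lower at 1 rpm without exception among the 40 tested, and 22 of them fell at least 2-fold, against 3.11% of all genes tested. Their median log2 change was -1.13 and their range -2.45 to -0.23. MCM4, a subunit of the replicative helicase, had 12.6, 12.98 and 12.1 FPKM in the 1 rpm libraries, against 49.1, 50.2 and 47.0 FPKM in the AggreWell libraries. CDC6, which loads that helicase at origins, had 3.85, 3.55 and 3.67 FPKM in the 1 rpm libraries, against 15.4, 15.5 and 15.3 FPKM in the AggreWell libraries. GINS1, part of the moving helicase, had 6.67, 6.85 and 7.32 FPKM in the 1 rpm libraries, against 23.5, 25.2 and 25.7 FPKM in the AggreWell libraries. In all of these genes the rotated libraries held less than any microwell library, and the log2 change of MCM4 was -1.88 ± 0.034. MCM10 (log2 -1.86 ± 0.049) and CDC45 (-1.66 ± 0.073), which activate the helicase, fell alike. PCNA, the sliding clamp, fell to 76.2 ± 1.01 FPKM at 1 rpm, against 185 ± 5.03 FPKM in AggreWell. In bulk RNA, fewer cells in S phase and less of these transcripts per cell cannot be told apart.

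The enzymes that supply nucleotides were divided, with 7 of 26 higher and 19 lower (median log2 -0.50). Those of deoxynucleotide and thymidylate supply fell: RRM2, the regulated subunit of ribonucleotide reductase, averaged 33.9 ± 0.618 FPKM at 1 rpm and 119 ± 1.82 FPKM in AggreWell, TYMS, thymidylate synthase, averaged 86.1 ± 1.17 FPKM at 1 rpm and 261 ± 1.67 FPKM in AggreWell, and TK1, thymidine kinase, averaged 22.1 ± 0.533 FPKM at 1 rpm and 57.3 ± 2.05 FPKM in AggreWell. MTHFD2, a mitochondrial folate enzyme that ATF4 also drives, rose to 115 ± 1.85 FPKM, against 61.2 ± 0.553 FPKM in AggreWell. Of 22 G1/S cyclins, kinases and E2F factors, 21 fell and 1 rose. E2F1, an activator of replication genes, had 5.25, 6.31 and 6.33 FPKM in the 1 rpm libraries, against 22.5, 21.7 and 22.1 FPKM in the AggreWell libraries, with no overlap between formats. CDC25A (log2 -1.83 ± 0.054), a phosphatase that starts S phase, UHRF1 (-1.69 ± 0.051) and CCNE2 (-1.67 ± 0.065), cyclin E2, fell by similar amounts on the log2 scale. RBL2, which encodes the pocket protein p130 of the DREAM complex, was the riser (log2 0.72 ± 0.035).

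Of 40 mitosis genes, 39 fell and 1 rose, and the median of -0.67 (log2) was smaller than that of replication genes. HMMR, a spindle protein, had 17.6, 17.95 and 16.9 FPKM in the 1 rpm libraries, against 49.7, 50.2 and 48.4 FPKM in the AggreWell libraries. MKI67, the antigen used to mark dividing cells, had 26.2, 25.6 and 26.1 FPKM in the 1 rpm libraries, against 72.1, 68.5 and 68.8 FPKM in the AggreWell libraries. ANLN, needed for cytokinesis, averaged 55.6 ± 0.497 FPKM at 1 rpm and 126 ± 1.85 FPKM in AggreWell, and TOP2A, the topoisomerase that separates sister chromatids, averaged 96.0 ± 0.653 FPKM at 1 rpm and 145 ± 2.10 FPKM in AggreWell. KIF11 (log2 -1.13 ± 0.027), NDC80 (-1.07 ± 0.027) and ASPM (-1.03 ± 0.032) lay between them. CDC25B, a phosphatase that activates the mitotic kinase, was the exception at 230.5 ± 4.07 FPKM at 1 rpm and 177 ± 2.75 FPKM in AggreWell. Inhibitors of cyclin-dependent kinases did not move as one group: 12 of 18 CDK inhibitor and growth arrest genes rose and 3 fell. CDKN1C (10.3 ± 0.666 FPKM at 1 rpm and 2.07 ± 0.0634 FPKM in AggreWell), CDKN1B (47.1 ± 0.624 FPKM at 1 rpm and 17.4 ± 1.53 FPKM in AggreWell) and CCNG2 (11.3 ± 0.484 FPKM at 1 rpm and 2.07 ± 0.173 FPKM in AggreWell) were higher. CDKN1A, the p53 target p21, was lower, at 14.7 ± 0.375 FPKM at 1 rpm and 24.8 ± 0.708 FPKM in AggreWell, as was CDKN2C at 13.7 ± 0.522 FPKM at 1 rpm and 50.3 ± 0.668 FPKM in AggreWell. MDM2, another p53 target, did not pass the test (log2 0.02 ± 0.031).

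Promoters of 4 falling genes are printed to show the letters that cell cycle complexes are known to read. In CDC6 (chr17:40287629-40287928, plus strand) and GINS1 (chr20:25407423-25407722, plus strand) the E2F motif TTTNGCGC starts at 8 and 6 bases after the start site. Of windows of replication genes, 14 of 34 hold it (41.2%), against 1.83% of all windows and 3.21% of those of tested genes. In HMMR (chr5:163460382-163460681, plus strand) and MKI67 (chr10:128126374-128126673, minus strand) the cell cycle homology region TTTGAA lies at -28 and -22, and at -47 and -29, and capitals mark CCAAT as well, the NF-Y motif, on either strand. Of 33 windows of mitosis genes, 22 hold TTTGAA (66.7%), against 15.43% of all windows and 8.91% of those of tested genes, while 0 of 34 windows of replication genes do. The lists were made from the known roles of these genes in the cell cycle, with earlier results of these data known. The letters were not used to make them, but these complexes are already known to act on such genes. What the motifs have to do with the falls was not tested.
CDC6: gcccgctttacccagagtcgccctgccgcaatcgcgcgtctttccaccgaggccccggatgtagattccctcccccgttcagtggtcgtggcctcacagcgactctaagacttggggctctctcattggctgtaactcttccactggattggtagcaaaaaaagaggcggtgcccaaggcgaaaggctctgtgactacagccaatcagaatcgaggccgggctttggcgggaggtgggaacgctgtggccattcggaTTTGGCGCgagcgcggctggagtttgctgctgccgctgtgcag
GINS1: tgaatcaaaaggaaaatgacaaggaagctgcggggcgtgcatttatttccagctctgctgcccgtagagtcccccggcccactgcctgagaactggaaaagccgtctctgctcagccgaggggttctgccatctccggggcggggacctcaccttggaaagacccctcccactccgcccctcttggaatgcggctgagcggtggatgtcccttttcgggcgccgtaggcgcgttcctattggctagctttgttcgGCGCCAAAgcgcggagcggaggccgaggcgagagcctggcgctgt
HMMR: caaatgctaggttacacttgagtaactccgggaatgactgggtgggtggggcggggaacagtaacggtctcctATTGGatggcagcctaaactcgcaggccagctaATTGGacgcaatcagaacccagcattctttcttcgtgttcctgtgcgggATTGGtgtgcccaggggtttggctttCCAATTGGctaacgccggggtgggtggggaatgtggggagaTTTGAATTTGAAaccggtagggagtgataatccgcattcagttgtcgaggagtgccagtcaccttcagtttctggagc
MKI67: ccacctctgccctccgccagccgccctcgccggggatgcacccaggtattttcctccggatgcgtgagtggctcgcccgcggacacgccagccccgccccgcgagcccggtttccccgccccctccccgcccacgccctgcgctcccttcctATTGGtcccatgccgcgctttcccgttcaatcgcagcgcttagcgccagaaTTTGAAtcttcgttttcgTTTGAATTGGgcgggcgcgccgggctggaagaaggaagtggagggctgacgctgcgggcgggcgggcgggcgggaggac

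Cholesterol synthesis genes rose in 19 of 25 cases and fell in 5, with a median of 0.81 (log2) and 10 rises of at least 2-fold, against 5.27% of all genes tested. HMGCS1, the enzyme that makes HMG-CoA, had 27.7, 28.1 and 27.8 FPKM in the 1 rpm libraries, against 5.64, 6.05 and 5.97 FPKM in the AggreWell libraries. MSMO1, a sterol methyl oxidase, had 52.5, 53.7 and 53.6 FPKM in the 1 rpm libraries, against 10.7, 11.5 and 10.3 FPKM in the AggreWell libraries. Both were thus at 4.73 and 4.93 times their AggreWell levels, with no overlap. IDI1, which isomerises isopentenyl diphosphate, had 19.7, 19.6 and 19.5 FPKM in the 1 rpm libraries, against 5.66, 5.70 and 5.72 FPKM in the AggreWell libraries. The sterol sensor INSIG1 averaged 47.9 ± 1.71 FPKM at 1 rpm and 12.97 ± 1.04 FPKM in AggreWell. SREBF2, which encodes the factor that drives the pathway, rose as well, by log2 1.56 ± 0.037. Against the list, PMVK, a mevalonate pathway kinase, fell to 19.8 ± 0.728 FPKM at 1 rpm, against 34.8 ± 0.601 FPKM in AggreWell. Fatty acid synthesis genes rose in 17 of 22 cases and fell in 3. SREBF1, their main activator, averaged 71.4 ± 1.595 FPKM at 1 rpm and 18.1 ± 0.671 FPKM in AggreWell. FASN, fatty acid synthase, had 100.7, 98.1 and 104 FPKM in the 1 rpm libraries, against 31.8, 30.6 and 31.0 FPKM in the AggreWell libraries. SCD, the stearoyl-CoA desaturase, had 575, 572 and 566 FPKM in the 1 rpm libraries, against 197, 197 and 195 FPKM in the AggreWell libraries. In these genes too the formats did not overlap, while ACLY, ATP citrate lyase, differed by only log2 0.09 ± 0.029.

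MSMO1 is shown as an example of the promoters of this list (chr4:165327419-165327718, plus strand). Capitals mark CCAAT, the motif of NF-Y, which works beside SREBP, at -185, -139, -76 and -34 on either strand. CCAAT lies in 15 of 19 windows of cholesterol synthesis genes (78.9%), against 35.7% of all windows and 37.25% of those of tested genes. The sterol element searched for, TCACNCCAC, lies in 1 of these 19 windows, that of SREBF2, and in 1.15% of all windows.
MSMO1: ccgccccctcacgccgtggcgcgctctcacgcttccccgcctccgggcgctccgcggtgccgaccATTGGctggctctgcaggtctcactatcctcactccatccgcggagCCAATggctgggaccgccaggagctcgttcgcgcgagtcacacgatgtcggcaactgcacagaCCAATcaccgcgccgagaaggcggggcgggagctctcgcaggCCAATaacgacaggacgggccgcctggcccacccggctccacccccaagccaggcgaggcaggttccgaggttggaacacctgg

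Glycolysis enzymes were lower in 19 of 22 cases and higher in 2 (median log2 -0.34). LDHA, which makes lactate, had 417, 412 and 409.5 FPKM in the 1 rpm libraries, against 933, 944 and 943 FPKM in the AggreWell libraries. PGK1, phosphoglycerate kinase, averaged 103 ± 2.22 FPKM at 1 rpm and 196 ± 0.703 FPKM in AggreWell, and HK2, a hexokinase, averaged 8.74 ± 0.402 FPKM at 1 rpm and 15.6 ± 0.330 FPKM in AggreWell. PFKFB2, which makes the activator of phosphofructokinase, was the largest of the rises (log2 0.74 ± 0.045). Of 20 hypoxia response genes, which hypoxia-inducible factors drive, 13 fell and 6 rose. NDRG1 (7.12 ± 0.0888 FPKM at 1 rpm and 17.01 ± 0.344 FPKM in AggreWell) and ANKRD37 (log2 -0.88 ± 0.11) fell, but VEGFA, a main target of the hypoxia-inducible factors, stood slightly higher, at 14.3 ± 0.269 FPKM at 1 rpm and 11.8 ± 0.566 FPKM in AggreWell. EFNA1, an ephrin ligand, went with the rises, with 17.9, 18.3 and 16.2 FPKM in the 1 rpm libraries, against 2.26, 2.52 and 2.66 FPKM in the AggreWell libraries. CA9 and EGLN3, which are sensitive hypoxia markers, did not reach the filter. Among glucose transporters, SLC2A3 averaged 4.27 ± 0.148 FPKM at 1 rpm and 0.498 ± 0.191 FPKM in AggreWell, while the abundant SLC2A1 overlapped between formats, with 24.8, 25.4 and 24.0 FPKM in the 1 rpm libraries, against 24.4, 24.5 and 24.5 FPKM in the AggreWell libraries. ARRDC4, a relative of TXNIP driven by the same glucose-sensing factors, averaged 3.37 ± 0.0345 FPKM at 1 rpm and 0.237 ± 0.0808 FPKM in AggreWell.

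Stress programmes did not move together. Of 27 ATF4 amino acid stress genes, 21 rose and 5 fell (median log2 0.66). DDIT3, the stress factor CHOP, had 82.9, 80.0 and 78.9 FPKM in the 1 rpm libraries, against 11.2, 11.4 and 11.2 FPKM in the AggreWell libraries. GDF15, a secreted stress cytokine, averaged 325 ± 6.56 FPKM at 1 rpm and 97.8 ± 1.95 FPKM in AggreWell, and ATF4 itself 70.2 ± 2.00 FPKM at 1 rpm and 23.2 ± 0.905 FPKM in AggreWell. ASNS, asparagine synthetase, averaged 2.67 ± 0.117 FPKM at 1 rpm and 0.386 ± 0.0908 FPKM in AggreWell, while PSPH, the last enzyme of serine synthesis, fell to 8.67 ± 0.545 FPKM, against 15.9 ± 0.675 FPKM in AggreWell. Aminoacyl-tRNA synthetases were divided, with 12 of 20 higher and 7 lower, from AARS1 (log2 1.00 ± 0.021) to FARSA (-0.63 ± 0.032). Of 23 unfolded protein response genes, 15 rose and 4 fell. HSPA5, the main chaperone of the endoplasmic reticulum, had 307, 311 and 310.1 FPKM in the 1 rpm libraries, against 163, 159.7 and 157 FPKM in the AggreWell libraries, and HERPUD1 (log2 1.38 ± 0.041) and DNAJB9 (1.62 ± 0.057) rose more, while CALR did not pass the test (-0.03 ± 0.021).

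Most cytosolic heat shock chaperones fell, 20 of 25 lower and 2 higher. DNAJA1, an HSP40 co-chaperone, had 101.1, 103 and 103 FPKM in the 1 rpm libraries, against 279.5, 279.9 and 278 FPKM in the AggreWell libraries. HSP90AA1, the inducible HSP90, averaged 204 ± 1.28 FPKM at 1 rpm and 403 ± 1.66 FPKM in AggreWell, and HSPH1 averaged 37.8 ± 0.861 FPKM at 1 rpm and 77.5 ± 0.364 FPKM in AggreWell. Proteasome subunits fell in 32 of 35 cases and rose in 3, among them the base subunit PSMC3 at 55.5 ± 1.39 FPKM at 1 rpm and 104 ± 1.76 FPKM in AggreWell. The risers were the activators PSME1 (36.3 ± 0.886 FPKM at 1 rpm and 18.1 ± 1.23 FPKM in AggreWell), PSME2 (log2 0.37 ± 0.028) and PSME4 (0.42 ± 0.024), while the nuclear activator PSME3 fell (log2 -0.95 ± 0.029). NRF2 oxidative stress genes were mixed beyond HMOX1, with 13 of 21 higher and 5 lower, and NQO1, the usual marker of NRF2, did not pass the test (log2 -0.01 ± 0.023, adjusted p = 0.616 by limma). The transferrin receptor TFRC fell to 50.9 ± 0.893 FPKM, against 107 ± 1.02 FPKM in AggreWell, while the ferritin chain FTL rose (log2 0.69 ± 0.029).

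NF-kB targets and cytokines rose in 19 of 23 cases and fell in 1 (median log2 1.05). NFKBIA, the inhibitor that NF-kB induces against itself, had 56.5, 59.5 and 56.7 FPKM in the 1 rpm libraries, against 13.1, 13.2 and 12.6 FPKM in the AggreWell libraries. ICAM1, an adhesion receptor of leukocytes, averaged 13.3 ± 0.280 FPKM at 1 rpm and 3.07 ± 0.111 FPKM in AggreWell, NFKB2 averaged 23.7 ± 0.302 FPKM at 1 rpm and 6.71 ± 0.283 FPKM in AggreWell, and TNFAIP3, the A20 feedback enzyme, 3.09 ± 0.157 FPKM at 1 rpm and 0.413 ± 0.0874 FPKM in AggreWell. CXCL3, a chemokine of neutrophils, was low, with 2.98, 2.10 and 3.40 FPKM in the 1 rpm libraries, against 0.0487, 0.190 and 0.120 FPKM in the AggreWell libraries. CXCL3 and TNFAIP3 passed the filter through 1 rpm only, so they could not be called lower. Of the 32 listed genes, 8 were under 1 FPKM in all 6 libraries. CCL2, a chemokine of monocytes, was the one that fell, to 10.3 ± 0.360 FPKM, against 32.3 ± 1.25 FPKM in AggreWell. IL6, CXCL8 and PTGS2 did not reach the filter. Of 18 interferon response genes, 16 rose and 2 fell. They included TAP1, a peptide carrier of antigen presentation (30.5 ± 0.930 FPKM at 1 rpm and 9.23 ± 0.545 FPKM in AggreWell), and the immunoproteasome subunits PSMB9 (5.05 ± 0.287 FPKM at 1 rpm and 1.16 ± 0.348 FPKM in AggreWell) and PSMB8 (4.02 ± 0.502 FPKM at 1 rpm and 0.864 ± 0.0947 FPKM in AggreWell). HLA-B stood at 9.80, 9.76 and 9.73 FPKM in the 1 rpm libraries, against 1.19, 1.598 and 2.64 FPKM in the AggreWell libraries, the AggreWell libraries differing among themselves, and HLA genes are close copies whose reads may be divided. OAS3, an antiviral enzyme, fell (log2 -0.91 ± 0.051), and IFIT1, MX1 and OAS1 did not reach the filter.

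YAP/TAZ, ID and BMP, and Wnt lists were each split about as all tested genes were, 44.0% higher and 39.7% lower, so their counts of calls of any size do not set them apart. Falls of at least 2-fold were 4 of 26, 5 of 21 and 3 of 18 in that order, against 3.11% of all genes tested. Rises of at least 2-fold were 1, 2 and 1, against 5.27%. Of 26 YAP/TAZ targets, 11 rose and 12 fell, with a median of -0.005 that passed 0 when single libraries were left out. CCN2, a matricellular protein and classic target, had 8.05, 8.24 and 7.61 FPKM in the 1 rpm libraries, against 20.9, 20.5 and 20.4 FPKM in the AggreWell libraries, whereas its relative CCN1 stood at 165 ± 2.26 FPKM at 1 rpm and 121 ± 2.99 FPKM in AggreWell. NUAK2, a kinase, rose to 6.12 ± 0.383 FPKM, against 0.683 ± 0.00378 FPKM in AggreWell. ID factors, which BMP signals induce, fell beside ID2: ID1 averaged 92.6 ± 0.215 FPKM at 1 rpm and 289.8 ± 9.05 FPKM in AggreWell and ID3 averaged 54.2 ± 1.04 FPKM at 1 rpm and 191 ± 6.28 FPKM in AggreWell. NOG, a BMP antagonist that BMP also induces, had 3.98, 4.05 and 3.96 FPKM in the 1 rpm libraries, against 14.5, 13.2 and 13.4 FPKM in the AggreWell libraries. In the same list TGIF1, a repressor of SMAD signals, rose (log2 1.44 ± 0.025), so that 10 of 21 rose and 11 fell, with a median of -0.08 that turned to 0.27 among genes with a mean of at least 5 FPKM. Wnt feedback genes counted 7 higher and 7 lower of 18, with DKK1 and AXIN2 (log2 -1.06 ± 0.048) lower and NKD2 (1.59 ± 0.058) higher, and their median of 0.015 turned negative under other scalings. Notch genes rose in 12 of 17 cases and fell in 3, from HES4 (59.3 ± 1.49 FPKM at 1 rpm and 18.1 ± 0.446 FPKM in AggreWell) and HES1 (36.9 ± 0.782 FPKM at 1 rpm and 19.1 ± 1.14 FPKM in AggreWell) to LFNG, which fell (log2 -1.20 ± 0.077).

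Actin and SRF targets fell in 14 of 24 cases and rose in 5; ACTB, beta actin, had 1942, 1869 and 1952 FPKM in the 1 rpm libraries, against 3356, 3307 and 3217 FPKM in the AggreWell libraries. Collagen and matrix genes were higher in 13 of 20 cases and lower in 3, with COL1A1 at 11.4 ± 0.455 FPKM at 1 rpm and 5.57 ± 0.119 FPKM in AggreWell and THBS1, thrombospondin, at 0.275 ± 0.0484 FPKM at 1 rpm and 1.71 ± 0.146 FPKM in AggreWell. MMP1, a collagenase, fell to 8.06 ± 0.358 FPKM, against 23.8 ± 0.840 FPKM in AggreWell, while MMP14, which is bound to the membrane, stood at 3.69 ± 0.422 FPKM at 1 rpm and 0.989 ± 0.0832 FPKM in AggreWell. Among keratins, junction and EMT genes 13 of 23 rose and 8 fell, against 44.0% higher and 39.7% lower of all genes tested. SNAI1, a repressor of epithelial genes, averaged 18.5 ± 1.07 FPKM at 1 rpm and 6.71 ± 0.462 FPKM in AggreWell, and the keratin KRT8 averaged 280.0 ± 5.72 FPKM at 1 rpm and 501 ± 5.95 FPKM in AggreWell. SOX9, the one riser among the tested duct markers, averaged 71.1 ± 1.78 FPKM at 1 rpm and 36.7 ± 1.05 FPKM in AggreWell. Integrins counted 5 higher and 4 lower of 10, near the share of all genes, led by ITGA2, which fell (log2 -0.84 ± 0.025).

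Survival and recycling genes held members of both directions. Of 15 BCL2 family genes, 9 rose and 5 fell. MCL1, a short-lived protector, had 269.7, 271 and 269.6 FPKM in the 1 rpm libraries, against 74.6, 73.9 and 74.1 FPKM in the AggreWell libraries, and BBC3, the killer PUMA, averaged 8.13 ± 0.313 FPKM at 1 rpm and 1.52 ± 0.252 FPKM in AggreWell. Rotated cultures were higher in both, while BAX, which opens mitochondria, was lower (log2 -0.38 ± 0.048). Death receptors counted 6 higher and 4 lower of 13, near the shares of all genes tested, so counts of calls of any size do not set this list apart. Changes of at least 2-fold were 2 rises and 2 falls, against 5.27% and 3.11% of all genes tested. TNFRSF10B, a TRAIL receptor, stood at 39.4 ± 0.311 FPKM at 1 rpm and 17.8 ± 0.104 FPKM in AggreWell, while the adaptor FADD fell (log2 -1.18 ± 0.051). Lysosome and autophagy genes rose in 22 of 36 cases and fell in 10: ULK1, which starts autophagy, averaged 31.3 ± 0.574 FPKM at 1 rpm and 9.77 ± 0.350 FPKM in AggreWell, and SQSTM1, a cargo receptor, averaged 372 ± 6.42 FPKM at 1 rpm and 193 ± 3.19 FPKM in AggreWell, while MCOLN1, a lysosomal channel, fell (log2 -0.80 ± 0.052). Clustered histone genes rose in 12 of 17 tested cases and fell in 1, and 30 of the list were under 1 FPKM in all 6 libraries. Their copies are so alike that reads may have been divided or dropped.

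MYC rose, while the ribosome biogenesis genes listed with it were divided. MYC had 88.2, 88.6 and 94.7 FPKM in the 1 rpm libraries, against 18.2, 17.9 and 16.8 FPKM in the AggreWell libraries, 5.13 times higher at 1 rpm with no overlap. Of 33 genes in the ribosome biogenesis and MYC list, 10 rose and 16 fell, against 44.0% and 39.7% of all genes tested. The list's median was log2 -0.07, and its risers include MYC itself and the MYC antagonists named below. NOP56, a core protein of small nucleolar particles, had 97.1, 97.5 and 103 FPKM in the 1 rpm libraries, against 232, 227 and 229 FPKM in the AggreWell libraries, and RRS1, a ribosome assembly factor, averaged 14.1 ± 0.372 FPKM at 1 rpm and 39.5 ± 0.443 FPKM in AggreWell. The MYC antagonists MXD1 (log2 1.48 ± 0.054), MXI1 (1.42 ± 0.045) and MNT (1.19 ± 0.038) rose. Ribosomal proteins moved by little but almost as one, with 38 of 39 higher, 0 lower and a median log2 change of 0.27; under other scalings 37 were higher and 1 lower.

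Mitochondrially encoded transcripts fell in 11 of 13 cases, with a median log2 change of -1.74, but unevenly along the genome. ND2, a subunit of complex I, had 383, 404 and 376 FPKM in the 1 rpm libraries, against 2135, 2077 and 2035 FPKM in the AggreWell libraries. COX3, a subunit of cytochrome oxidase, had 867, 822 and 848 FPKM in the 1 rpm libraries, against 3944, 3882 and 3906 FPKM in the AggreWell libraries. ND4, from the same genome, overlapped between formats, with 5362, 5243 and 5003 FPKM in the 1 rpm libraries, against 5260.1, 5264 and 5197 FPKM in the AggreWell libraries. ND4L was called lower at log2 -0.13 ± 0.049 although its libraries overlapped, and ND5, at log2 0.13 ± 0.042, was called higher (adjusted p = 0.0192 by limma), a call that was not kept under every setting tried. ND6, the one message read from the other strand, averaged 119 ± 6.46 FPKM at 1 rpm and 790.0 ± 15.3 FPKM in AggreWell. No source used here says whether counting used strand, so reads of ND6 and of the opposite strand cannot be told apart. Nuclear subunits of oxidative phosphorylation fell in 26 of 39 cases and rose in 9, but by less, with a median of -0.13 and a largest fall of log2 -0.72 ± 0.038 in ATP5MC3. Copies of mitochondrial genes in the nucleus make these levels uncertain.

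**Figure D3:**
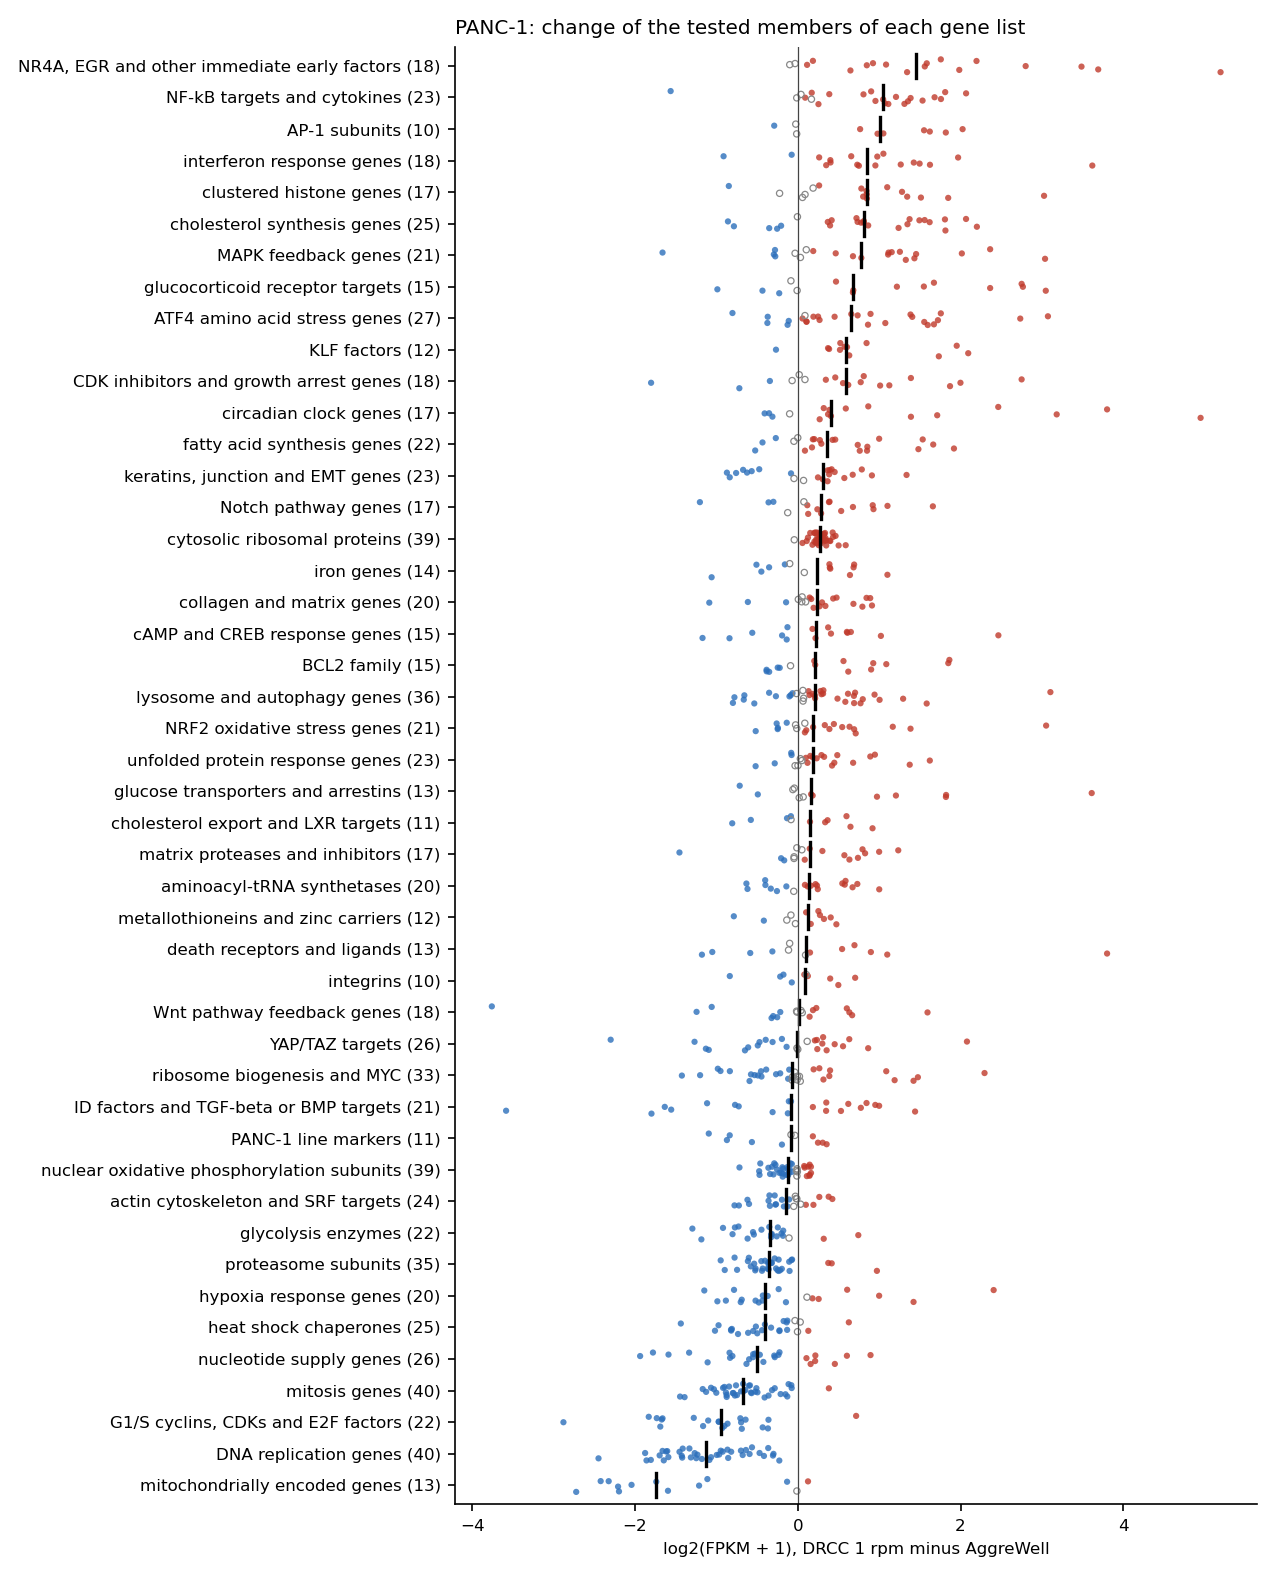
Log2 difference (1 rpm minus AggreWell, x axis) of every tested member of each gene list with at least 5 tested members, the number tested in brackets; red points were called higher, blue lower and open points not called, and the bar is the median. Lists run from immediate early factors at 1.45 to mitochondrially encoded genes at -1.74, and DNA replication genes have no point above 0.

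The same formats were compared in HEK293T, which addresses whether the differences are shared by the lines. An interaction contrast over the 12 libraries tested it, as PANC-1 minus HEK293T. Of 13136 genes tested, it was above 0 for 4857 (37.0%) and below 0 for 4790 (36.5%), and 2281 genes (17.4%) were called both ways, higher in one line and lower in the other. The interaction was called for all 20 leading PANC-1 rises and all 20 leading falls, with the sign of the PANC-1 change; in HEK293T, 15 of the 20 rises were called higher and 1 lower, and 12 of the 20 falls lower and 0 higher. Of all 13136 genes, 41.4% were called higher and 33.3% lower in HEK293T, which is the background for each HEK293T count given here. These genes were chosen for their size in PANC-1, which favours a larger change there. Large changes in HEK293T as well were measured for 3 stress and receptor genes: HMOX1 had 273 ± 2.18 FPKM at 1 rpm and 36.0 ± 2.12 FPKM in AggreWell in HEK293T (log2 2.89 ± 0.048), TXNIP had 210.3 ± 2.61 FPKM at 1 rpm and 23.6 ± 0.301 FPKM in AggreWell (3.10 ± 0.032), and NGFR had 39.3 ± 0.820 FPKM at 1 rpm and 2.60 ± 0.207 FPKM in AggreWell (3.48 ± 0.050). PER1 was not called in HEK293T, with 18.7 ± 0.606 FPKM at 1 rpm and 18.7 ± 1.10 FPKM in AggreWell and an interaction of 4.95 ± 0.058.

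Cholesterol synthesis genes moved in opposite directions in the lines. Their median log2 change was 0.81 in PANC-1 and -0.79 in HEK293T, where 2 of 25 rose and 22 fell; 18 of the 25 were called in opposite directions, against 17.4% of all genes. MSMO1 had 14.6 ± 0.446 FPKM at 1 rpm and 33.8 ± 0.318 FPKM in AggreWell in HEK293T, and the log2 changes were 2.20 ± 0.036 in PANC-1 and -1.16 ± 0.036 in HEK293T. IDI1 had 8.13 ± 0.674 FPKM at 1 rpm and 27.6 ± 0.980 FPKM in AggreWell in HEK293T (interaction 3.27 ± 0.064), INSIG1 had 40.5 ± 0.813 FPKM at 1 rpm and 102 ± 3.86 FPKM in AggreWell (3.12 ± 0.068), and the desaturase SCD had 78.5 ± 1.83 FPKM at 1 rpm and 276 ± 1.69 FPKM in AggreWell (3.34 ± 0.028).

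Replication and mitosis genes differed as well. Replication genes had a median log2 change of -1.13 in PANC-1 and -0.06 in HEK293T, and the interaction was below 0 for 39 of 40. Mitosis genes had a median of -0.67 in PANC-1 and 0.31 in HEK293T, where 30 of 40 rose and 3 fell, and 31 were called in opposite directions. HMMR averaged 30.5 ± 2.95 FPKM at 1 rpm and 18.4 ± 0.745 FPKM in AggreWell in HEK293T, with an interaction of -2.14 ± 0.077, and TOP2A averaged 78.5 ± 2.13 FPKM at 1 rpm and 48.4 ± 0.941 FPKM in AggreWell (-1.27 ± 0.035). NF-kB targets had medians of 1.00 and -0.02 in the same order, over 24 genes, and the interaction was above 0 for 19. The glycolysis enzymes fell in both lines and by more in HEK293T, with medians of -0.34 in PANC-1 and -1.03 in HEK293T and 20 of 22 interactions above 0. PGK1 averaged 83.6 ± 1.40 FPKM at 1 rpm and 454 ± 2.42 FPKM in AggreWell in HEK293T (log2 -2.43 ± 0.021), and SLC2A1, which was not called in PANC-1, averaged 14.2 ± 0.312 FPKM at 1 rpm and 67.8 ± 0.781 FPKM in AggreWell (-2.18 ± 0.027). ATF4 amino acid stress genes rose in both lines, 27 of 30 in HEK293T, with medians of 0.56 in PANC-1 and 0.79 in HEK293T; ASNS averaged 15.6 ± 0.997 FPKM at 1 rpm and 1.28 ± 0.0178 FPKM in AggreWell in HEK293T, and its interaction was -1.45 ± 0.079.

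**Figure D4:**
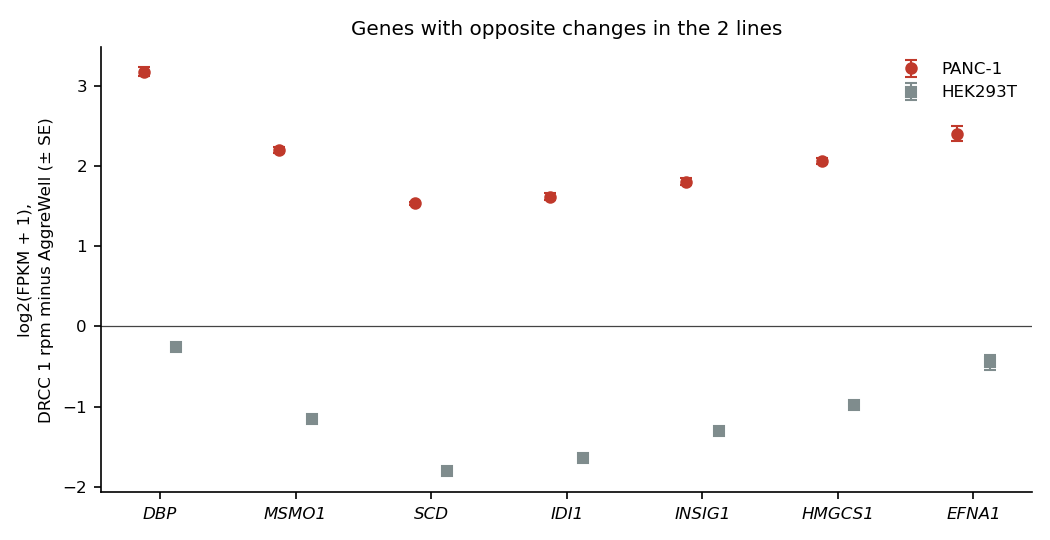
Log2 difference (1 rpm minus AggreWell, y axis) in PANC-1 (circles) and HEK293T (squares) with standard errors (n = 3 libraries per format) for 7 of the 8 genes with the largest interaction among those called in opposite directions. All 7 are above 0 in PANC-1 and below 0 in HEK293T, and 5 of them, MSMO1, SCD, IDI1, INSIG1 and HMGCS1, belong to sterol or fatty acid metabolism.

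PANC-1 at 1 rpm was also compared with PANC-1 at 30 rpm, which addresses the rotation speed. The test uses the same 1 rpm libraries as the one against AggreWell, so the comparisons are not independent. Of 11272 genes tested, 3681 (32.7%) were higher and 4158 (36.9%) lower at 1 rpm than at 30 rpm, and only 38 and 87 by at least 2-fold. Without mitochondrially encoded genes, and with each library rescaled to a common FPKM sum, the split was 4983 higher and 2933 lower. The direction of small differences thus depends on the scaling, and the share of the rescaling in this shift was not tested. IRF1 averaged 29.4 ± 0.743 FPKM at 1 rpm and 10.2 ± 0.323 FPKM at 30 rpm, and NFKBIA averaged 57.6 ± 1.71 and 20.9 ± 1.07 FPKM in that order. FASN averaged 100.9 ± 2.86 FPKM at 1 rpm and 37.9 ± 0.462 FPKM at 30 rpm, against 31.1 ± 0.624 FPKM in AggreWell, so its level at 30 rpm lay near that of the microwells. TNFAIP2 (log2 1.39 ± 0.037, 1 rpm minus 30 rpm) and NUAK2 (1.32 ± 0.055) were higher at the slow speed too. ND6 differed most, at 119 ± 6.46 FPKM at 1 rpm and 2.42 ± 0.381 FPKM at 30 rpm (log2 5.13 ± 0.074).

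Lower at 1 rpm than at 30 rpm were clustered histone genes and the inducible HSP70 genes. H2AC8 averaged 2.45 ± 0.597 FPKM at 1 rpm and 18.99 ± 1.49 FPKM at 30 rpm, and H2BC17 averaged 1.55 ± 0.183 and 13.3 ± 0.721 FPKM. Of 25 histone genes tested between speeds, 20 were lower at 1 rpm and 1 higher, while 17 of the list were tested against AggreWell. Members that passed the filter through 30 rpm only could not be called higher at 1 rpm, so the filter fixed part of this count. HSPA1A averaged 25.4 ± 0.705 FPKM at 1 rpm and 106 ± 3.15 FPKM at 30 rpm, and HSPA1B, its near-identical copy, 24.7 ± 1.03 and 111 ± 3.17 FPKM. Some genes that rose against AggreWell were higher still at 30 rpm: NGFR averaged 37.4 ± 1.51 and 140.3 ± 1.66 FPKM, HMOX1 85.8 ± 4.85 and 236 ± 0.880 FPKM, and 25 of 29 ATF4 amino acid stress genes were lower at 1 rpm than at 30 rpm. Cholesterol synthesis genes stood the other way, with 20 of 25 higher at 1 rpm and 3 lower. Mitosis genes were higher at 1 rpm in 28 of 40 cases, and MKI67 averaged 26.0 ± 0.298 FPKM at 1 rpm and 17.6 ± 0.456 FPKM at 30 rpm.

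ID1, ID3 and NOG, singled out after their values were seen, differed between the speeds, although their list of ID factors and TGF-beta or BMP targets did not stand out, with 8 of 21 higher and 9 lower at 1 rpm than at 30 rpm. ID1 averaged 92.6 ± 0.215 FPKM at 1 rpm, 265 ± 2.21 FPKM at 30 rpm, 289.8 ± 9.05 FPKM in AggreWell and 198 ± 3.94 FPKM in 2D, and ID3 averaged 54.2 ± 1.04, 216 ± 5.58, 191 ± 6.28 and 129 ± 3.58 FPKM in the same order. NOG averaged 3.999 ± 0.0464 FPKM at 1 rpm, 16.9 ± 0.602 FPKM at 30 rpm, 13.7 ± 0.722 FPKM in AggreWell and 13.4 ± 1.24 FPKM in 2D (log2 -1.84 ± 0.038, 1 rpm minus 30 rpm). The 1 rpm mean was thus the lowest of the 4 PANC-1 formats for each of these 3 genes. ID2 behaved otherwise, at 3.74 ± 0.258 FPKM at 1 rpm and 7.04 ± 1.02 FPKM at 30 rpm, against 55.9 ± 0.802 FPKM in AggreWell and 18.7 ± 1.33 FPKM in 2D. NR4A2 (69.9 ± 1.88 FPKM at 1 rpm, 63.3 ± 1.25 FPKM at 30 rpm) and TXNIP (18.97 ± 0.143 and 20.1 ± 0.0837 FPKM) were close between speeds, while both averaged under 1 FPKM in AggreWell and in 2D (the 2D levels were 0.576 ± 0.142 FPKM for NR4A2 and 0.720 ± 0.201 FPKM for TXNIP). DKK1 was high in both formats without rotation, at 142 ± 2.51 FPKM in AggreWell and 143 ± 5.38 FPKM in 2D.

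**Figure D5:**
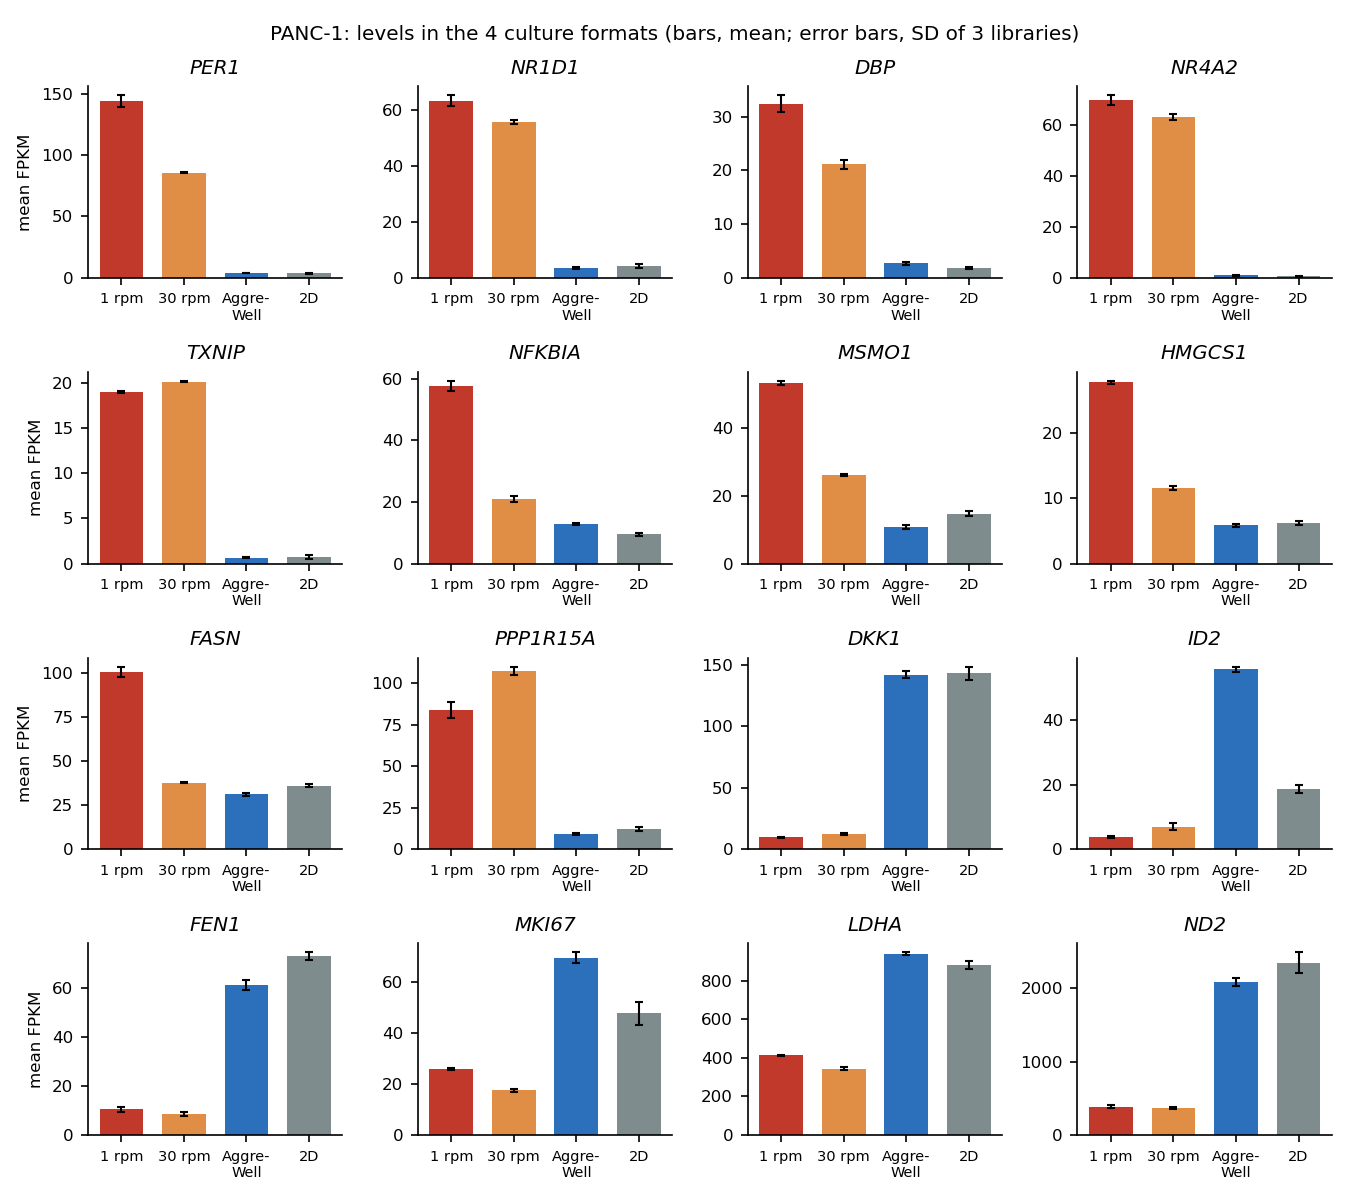
Mean FPKM of 16 genes in PANC-1 at 1 rpm, at 30 rpm, in AggreWell and in 2D (bars start at 0; error bars are SD of 3 libraries). PER1, NR1D1, NR4A2 and TXNIP are higher in both rotated formats than in AggreWell and 2D, MSMO1, HMGCS1 and FASN are highest at 1 rpm, and DKK1, FEN1, LDHA and ND2 are higher in both formats without rotation.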

How the data were processed

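The authors deposited FPKM values for each gene in each library. HISAT2, HTSeq, fastp and R (3.2.0) are named, per the submitters' processing notes, without roles, as is the build mm10, although the symbols are human. The steps of the FPKM values are whole multiples of 1 fragment for 26449 of 26450 genes (tolerance 0.01), which gave the depth of each library. With at least 34018135 fragments per library, the counting error of genes well above the filter is small beside the larger changes described. This does not hold for genes near 1 FPKM or for the smallest changes. From the deposited FPKM, log2(FPKM + 1) was tested with limma (version 3.58.1, R version 4.3.3) using its intensity trend, for genes at 1 FPKM or more in at least 3 libraries of the fit. Tables and figures used Python (3.11.15), pandas (2.3.3) and matplotlib (3.10.9). In data simulated for 1 rpm against AggreWell over 11304 genes, 97 of 100 genes changed by 1.5-fold and 100 of 100 changed by 2-fold were recovered, with 7 false calls. The changed genes were drawn only from those at about 5 FPKM or more in AggreWell, so the recovery does not cover genes near 1 FPKM. Noise was normal with each gene's spread in these libraries, and far fewer genes were changed than were called in the data. Named genes were the 20 largest rises and falls with a mean of at least 5 FPKM and no overlap, up to 6 called members per list with the largest changes, 8 genes for the lines and 6 per direction for the speeds; other genes were chosen after their values were seen, and some named genes are not reported here. The members and the 50 gene lists were chosen with earlier results of these data known. Of the listed genes, 4 were found under a synonym. Alternatives were another pseudocount, filters, scalings, variance models, a voom fit on recovered fragments, a fit over all PANC-1 libraries, a replicate block and each library left out. The alternative without mitochondrially encoded genes also rescaled each library to a common FPKM sum. The remaining HEK293T libraries were not used here.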

Additional observations from a re-analysis of the deposited data

Results flagged for a closer look

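In 7 genes the change between culture formats ran in opposite directions in the lines, with some of the largest differences between lines among genes called in both. The difference is the log2 change (1 rpm minus AggreWell) in PANC-1 minus that in HEK293T, tested by limma over 12 libraries, and each gene was higher at 1 rpm in all 3 PANC-1 libraries. It was 3.44 ± 0.077 for DBP, a clock-controlled activator that averaged 32.4 ± 1.61 FPKM at 1 rpm and 2.68 ± 0.233 FPKM in AggreWell in PANC-1 and 5.63 ± 0.250 FPKM at 1 rpm and 6.93 ± 0.377 FPKM in AggreWell in HEK293T. In the sterol and fatty acid pathways it was 3.36 ± 0.050 for MSMO1, 3.34 ± 0.028 for SCD, 3.27 ± 0.064 for IDI1, 3.12 ± 0.068 for INSIG1 and 3.05 ± 0.050 for HMGCS1. For the ephrin EFNA1 it was 2.85 ± 0.13, with 3.77 ± 0.668 FPKM at 1 rpm and 5.47 ± 0.574 FPKM in AggreWell in HEK293T.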

How the results depend on the processing

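None of the 303 changes of genes named by rule turned its sign, with a gene counted in each comparison that named it, but small medians and balances did. Over all genes the median against AggreWell was -0.002 by median-ratio scaling, -0.016 by quantile normalization and -0.004 for means of at least 5 FPKM, against 0.03, and lower calls outnumbered higher ones in these (4713 higher and 4745 lower, 4553 and 4823, 3187 and 3261). Against 30 rpm the median was 0.076 without mitochondrially encoded genes (with libraries rescaled to a common FPKM sum) and 0.014 by quantile normalization, against -0.018. Among lists, leaving out AggreWell replicate 2 gave 0.007 and leaving out 1 rpm replicate 2 or 3 gave 0.002 or 0.01 for YAP/TAZ targets; means of at least 5 FPKM gave 0.267 for ID, TGF-beta and BMP targets; median-ratio scaling gave -0.016, quantile normalization -0.064, leaving out AggreWell replicate 2 -0.017 and leaving out mitochondrially encoded genes -0.007 for Wnt genes. Restricting to means of at least 5 FPKM, which tests fewer genes, left 3187 higher and 3261 lower calls and 356 rises and 240 falls of at least 2-fold against AggreWell, 3232 and 3109 line differences above and below 0 with 302 and 305 of at least 2-fold, and 21 rises of at least 2-fold against 30 rpm. A pseudocount of 0.1 in place of 1, which shrinks low genes less, gave 1004 rises and 599 falls of at least 2-fold against AggreWell, 1010 and 929 between lines, and 95 and 190 against 30 rpm. The voom fit gave 1064 rises and 629 falls of at least 2-fold, and 9357 of its 9598 calls were among the 9453. With one library left out, counts ran from 4821 to 4892 higher and 4308 to 4381 lower against AggreWell (591 to 607 and 346 to 358 of at least 2-fold), from 4704 to 4809 above and 4592 to 4759 below 0 between lines (488 to 520 and 460 to 502), and from 3389 to 3565 higher and 3908 to 4022 lower against 30 rpm (36 to 40 and 89 to 96). Replicate numbers did not pair the samples (correlations of deviations of -0.0329, -0.0807 and -0.0352), and the fit with the replicate block gave 4942 higher and 4432 lower against AggreWell, 4888 and 4834 between lines, and 3599 and 4101 against 30 rpm. Of these 303 named changes, only those of PAX2 (no filter, and some libraries left out) and RPS16 (quantile normalization) lost their call under some setting. At 1 FPKM a gene rests on few fragments, so changes of genes near it are less certain; the cause of the other movements was not tested.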

Other observations

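Long noncoding RNAs and kinases outside the lists also stood apart between the formats in PANC-1, and the genes given here were chosen after their values were seen. GAS5, a host of small nucleolar RNAs whose transcript builds up when growth stops, had 424, 413 and 405 FPKM in the 1 rpm libraries, against 94.1, 97.3 and 100.6 FPKM in the AggreWell libraries. The host transcript EPB41L4A-AS1 averaged 24.7 ± 1.01 FPKM at 1 rpm and 6.59 ± 0.802 FPKM in AggreWell, and LINC-PINT, a p53-linked noncoding RNA, averaged 7.01 ± 0.289 FPKM at 1 rpm and 0.524 ± 0.111 FPKM in AggreWell. Nuclear speckle RNA MALAT1 averaged 295 ± 25.6 FPKM at 1 rpm and 70.5 ± 15.5 FPKM in AggreWell, and paraspeckle RNA NEAT1 averaged 75.9 ± 2.98 FPKM at 1 rpm and 44.8 ± 0.560 FPKM in AggreWell. Together these nuclear RNAs took 0.411 to 0.465% of each library's fragments at 1 rpm and 0.154 to 0.180% in AggreWell. What this difference has to do with the other results was not tested. PIM3, a survival kinase, had 141, 145 and 148 FPKM in the 1 rpm libraries, against 27.6, 26.5 and 28.0 FPKM in the AggreWell libraries, and the log2 change of PIM3 was 2.36 ± 0.038 in PANC-1 and -0.30 ± 0.038 in HEK293T. Its relative PIM1 averaged 31.8 ± 0.988 FPKM at 1 rpm and 6.08 ± 0.136 FPKM in AggreWell in PANC-1.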
